A study of Drosophila melanogaster with 14 samples.

Results

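The genes described here are 33 Drosophila melanogaster genes of the sarcomere and of muscle differentiation, taken as a fixed list of names: 6 thick filament genes, 15 thin filament genes, 5 genes of giant, elastic and kinase proteins, 6 genes of Z disc and LIM proteins, and the transcription factor gene Mef2. All 33 were found among the 17558 gene identifiers of the deposited counts. The list was chosen with earlier results of these data known, so its counts beside the share of all genes are a description. RNA was sequenced from whole animals with changes in lola (longitudinals lacking), which encodes many isoforms of a BTB zinc finger transcription factor. The 14 libraries form 3 sets, and every animal carried the deficiency Df(2R)ED2076 in place of 1 copy of the lola region. The lola-F set holds 3 libraries of lola-F stop / Df(2R)ED2076 embryos and 3 of Wild type / Df(2R)ED2076 embryos. The lola-null set holds 2 libraries of lola E76 / Df(2R)ED2076 embryos and 2 of Wild type / Df(2R)ED2076 embryos. The lola-O set holds 2 libraries of lola-O / Df(2R)ED2076 adults and 2 of Wild type / Df(2R)ED2076 adults. Embryos are labelled as 15 h after fertilization, adults were taken within 10 h of eclosion, and pools held 100 embryos in the lola-F set and 10 flies in the lola-O set. Mutant embryos were picked by hand with an mCherry marker. Controls therefore carried 1 copy of the lola region themselves, and each mutation was represented by a single genotype.

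A sarcomere slides thick filaments of myosin past thin filaments of actin. Calcium starts the movement by binding troponin C, which shifts tropomyosin along the thin filament. Z discs anchor the thin filaments, and giant titin-like proteins tie the thick filaments to them. Drosophila builds its muscles in separate rounds: the larval body wall muscles form in the embryo, and the flight, jump and leg muscles of the adult form in the pupa. The fly makes its muscle myosins from 1 gene, Mhc, by alternative splicing, which counts per gene cannot resolve, but it uses separate actin and troponin C genes for different muscles. Mef2 encodes the transcription factor that many muscle structural genes depend on.

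Libraries held between 3326811 (lola-F control 1) and 22629694 (lola-F mutant 3) gene counts. The 33 genes took 4.25% to 4.99% of gene counts in the lola-F set, 0.735% to 1.26% in the lola-null set and 5.56% to 7.63% in the lola-O set. Reads counted to no gene made up 66.7% in lola-F control 1, 18.6% to 44.5% in the lola-null set and 6.32% to 9.41% elsewhere. The gene lola itself was at 259 to 361 CPM (gene counts relative to the TMM-scaled library total, in the usual CPM unit) in lola-F controls and at 151 to 236 CPM in lola-F mutants. In the lola-null set it was at 1016 and 1414 CPM in the controls, at 1044 CPM in the library labelled mutant 1 and at 369 CPM in the library labelled mutant 2, so the library labelled mutant 1 was not below the controls. In the lola-O set it was at 125 and 97.0 CPM in controls and at 113 and 109 CPM in mutants. A gene total cannot check a change that removes 1 isoform. Muscle markers were present at both ages: Mhc was at 6985, 7727 and 9019 CPM in the lola-F set controls, 1339 and 917 CPM in the lola-null set controls and 25426 and 12744 CPM in the adult controls.

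**Figure D1:**
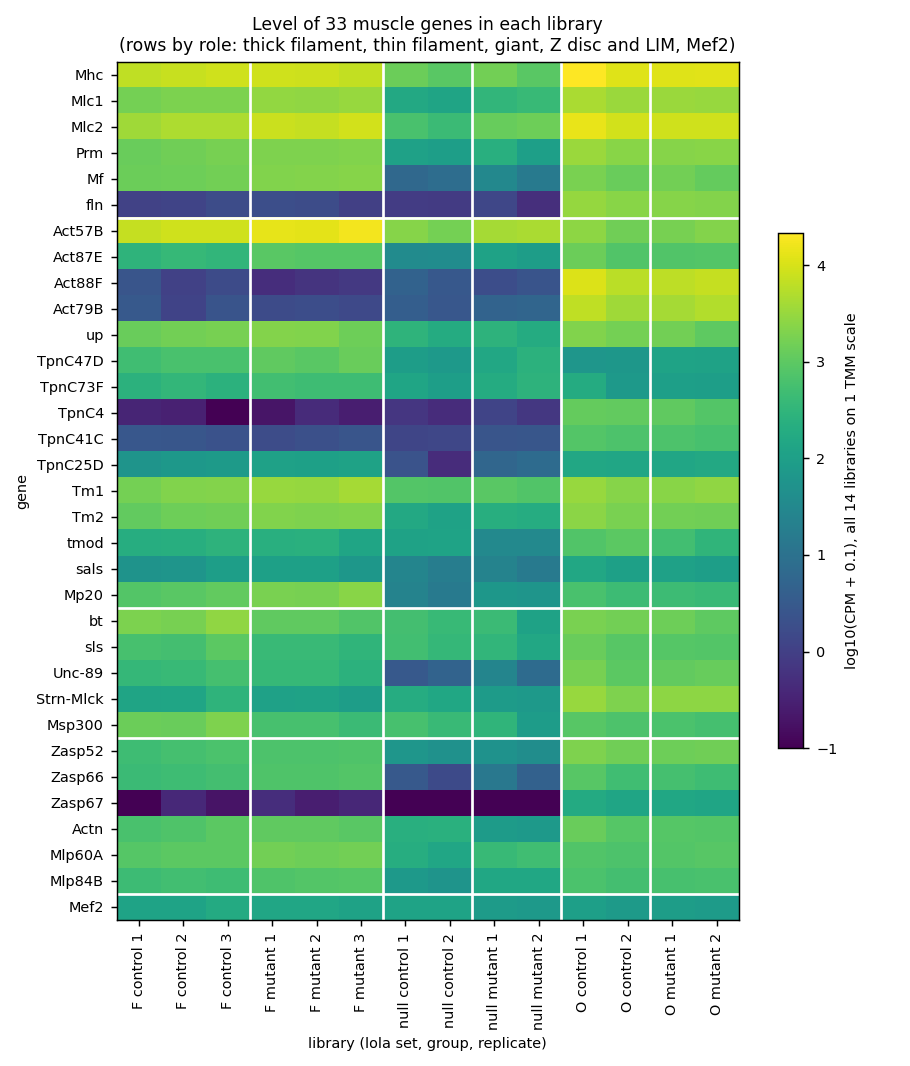
Level of each of the 33 genes (rows, by role) in each of the 14 libraries (columns, by set and group), as the colour of log10(CPM + 0.1) with all libraries on 1 TMM scale. Rows for Act88F, Act79B, TpnC4, TpnC41C, fln and Zasp67 are dark in the embryo libraries and bright in the 4 adult libraries, and Mf, Mp20, Unc-89 and Zasp66 are darkest in the 4 lola-null set libraries.

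The first comparison asks how the muscle gene set differed between embryos and newly eclosed adults of the control genotype, with the 3 lola-F set controls against the 2 adult controls. Stage and sequencing set cannot be told apart in it. In whole animals, fewer cells of a type and less RNA per cell cannot be told apart either, here and in every comparison that follows. Of the 33 genes, 19 were higher in adults and 3 were lower at an adjusted p under 0.05 (edgeR quasi-likelihood test, Benjamini-Hochberg adjustment over 13238 genes), where 39.9% of all tested genes were higher and 24% lower. The median log2 fold change of the 33 genes was 1.08, against 0.23 for all tested genes. Upper quartile scaling moved the median of all genes from 0.23 to −0.06 and gave 17 higher and 6 lower members, with TpnC73F, Mp20 and Mef2 then called lower. Over all 13238 tested genes, 4668 were then higher and 4339 lower. By role, 5 of 6 thick filament genes, 9 of 15 thin filament genes, 3 of 5 giant and kinase genes and 2 of 6 Z disc and LIM genes were higher. The genes separated into a small group with almost no embryonic counts, a larger group that rose, mostly by a few fold, 3 that fell and 11 that did not pass.

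The muscle actins split by stage. Act88F (3R:15439969-15442177, plus strand, BDGP6.54), the actin gene of the indirect flight muscles, was at 2.65, 0.967 and 1.56 CPM in the lola-F set controls and at 13335 and 6638 CPM in the adult controls (log2 fold change 12.64 ± 0.56, adjusted p = 5.66e-08). Act79B (3L:21985210-21987190, plus strand), the actin of adult leg and jump muscles, was at 3.18, 1.07 and 2.38 CPM in these embryos and at 7867 and 4053 CPM in adults (log2 fold change 11.49 ± 0.53, adjusted p = 6.82e-08). Neither gene came near its adult range in any embryo library. Act57B (2R:20944021-20946431, plus strand), the main actin of embryonic and larval body wall muscle, went the other way, with 7657, 9129 and 8913 CPM in the embryos and 3238 and 1664 CPM in adults (log2 fold change −1.81 ± 0.36, adjusted p = 0.00146). Act87E (3R:13425983-13428375, plus strand), a further muscle actin expressed in larvae, was at 309, 373 and 329 CPM in the embryos and 1597 and 814 CPM in adults (log2 fold change 1.84 ± 0.28, adjusted p = 0.000219). Groups did not overlap for any of the 4 genes, as was common here: 46.5% of all tested genes had both adult libraries above the 3 embryo libraries and 32.2% had both below. Reads that match several actin genes may be missing from these counts, so the levels of all 4 are uncertain to that extent.

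Scaled by exonic length and taken as a share of the 4 muscle actins, Act88F and Act79B together made up 83.0% ± 0.164 (SD, n = 2) in adult controls and 0.179% ± 0.178 (n = 5) in embryo controls. The difference was 82.8 percentage points, and the 2 adult libraries lay above all 5 embryo libraries. An exact two-sided permutation test over libraries gave p = 0.0952, the smallest value that its 21 arrangements allow. It treats the 5 embryo libraries alike. Their share was 0.0232% to 0.0788% in lola-F set controls and 0.360% to 0.385% in lola-null set controls. These ranges do not overlap, so the SD over the 5 includes the gap between sets. Act57B alone made up 96.5% to 96.9% of the family in lola-F set controls, 97.6% to 98.2% in lola-null set controls and 11.8% to 12.0% in adult controls. In adult controls Act88F took 51.8% to 52.6% and Act79B 30.6% to 31.1%, while Act87E stayed a minor member at 5.05% to 5.09%.

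**Figure D2:**
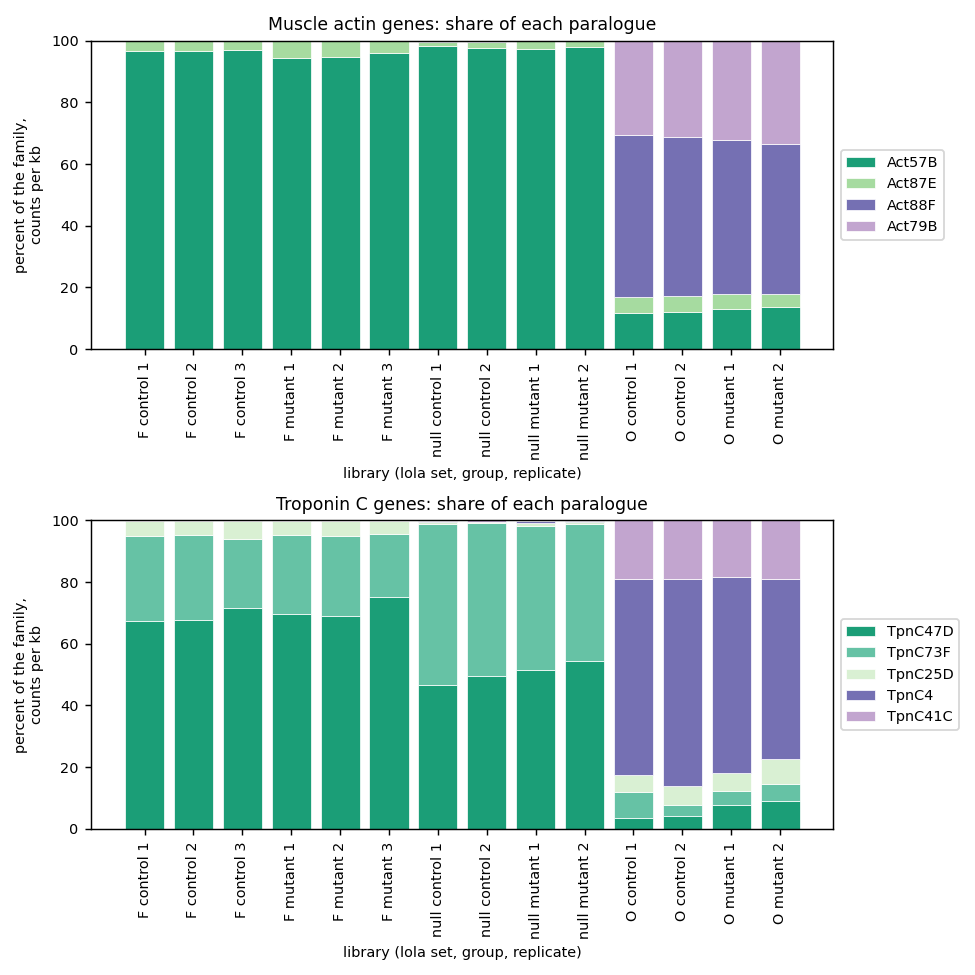
Percent of the muscle actin family (top) and of the troponin C family (bottom) held by each gene in each of the 14 libraries, from counts per kb of exonic length, as stacked bars. Act57B fills 94.3% to 98.2% of the actin bars in embryos and 11.8% to 13.7% in adults, and TpnC4 is the largest part of the troponin C bars in the 4 adult libraries, at 58.3% to 67.2%.

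The cytoplasmic actins, which every cell uses, changed in opposite directions and by less than Act88F or Act79B. Act5C was at 3819.7 ± 505 CPM in the embryo controls and 1558 ± 519 CPM in the adults (mean ± SD, log2 fold change −1.29 ± 0.30, adjusted p = 0.00347), and Act42A at 181 ± 15.2 and 367 ± 106 CPM (log2 fold change 1.02 ± 0.23, adjusted p = 0.00285).

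The troponin C genes split in the same manner. TpnC4 (2R:5503437-5507866, minus strand), the main troponin C of flight muscle, had 3 counts over the 3 lola-F set controls and 22416 counts over the 2 adult controls. Its ratio was 10304 (95% exact interval 3525 to 49969, counting error only). TpnC41C (2R:5065237-5070210, minus strand), known from adult jump and flight muscle, was at 2.92, 2.58 and 2.10 CPM in the embryos and 949 and 747 CPM in adults (log2 fold change 8.42 ± 0.27, adjusted p = 2.91e-08). The larval troponin C gene TpnC47D (2R:11273845-11275286, minus strand, 791 exonic bases and the shortest of the 33) was at 526, 644 and 627 CPM in the embryos and fell to 76.7 and 70.8 CPM in adults (log2 fold change −3.02 ± 0.23, adjusted p = 1.79e-06). TpnC73F, which also serves larval muscle, was at 286, 351 and 264 CPM in the embryos and 231 and 81.1 CPM in adults (log2 fold change −0.95 ± 0.39, adjusted p = 0.0532), and its adult libraries differed from each other more than its embryo libraries did. TpnC25D was at 59.9, 69.3 and 79.7 CPM and 189.8 and 159 CPM (log2 fold change 1.32 ± 0.31, adjusted p = 0.00375). Groups did not overlap for any of the 5 genes, where 46.5% of all tested genes lay all above and 32.2% all below.

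TpnC4 and TpnC41C together made up 84.2% ± 2.62 (SD, n = 2) of troponin C in adult controls and 0.313% ± 0.237 (n = 5) in embryo controls, on the per-kilobase scale. The difference was 83.9 percentage points, with an exact two-sided permutation p of 0.0952, again the smallest possible. In adult controls TpnC4 held 63.3% to 67.2% and TpnC41C 18.9% to 19.04%. TpnC47D held 67.5% to 71.6% of the family in lola-F set controls and 3.66% to 4.25% in adult controls.

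Other genes that were close to absent in embryos have known roles in flight muscle. fln, which encodes the thick filament protein flightin, was at 1.06, 1.18 and 1.65 CPM in the lola-F set controls and 3567 and 2569 CPM in adults (log2 fold change 11.13 ± 0.35, adjusted p = 2.91e-08). An annotated antisense RNA covers 61.6% of the exonic bases of fln, and because the sources used here do not say how the counting treated strand, reads of the gene and of its antisense partner may not be told apart. Zasp67, a Z disc gene, had 4 counts over these 3 embryo libraries and 3039 over the 2 adult libraries, a ratio of 1048 (95% exact interval 409 to 3848). Strn-Mlck, which encodes the stretchin and myosin light chain kinase proteins, was at 139, 141 and 297 CPM in the embryos and 3782 and 2173 CPM in adults (log2 fold change 3.95 ± 0.40, adjusted p = 1.19e-05). Unlike the genes just named it was well measured in embryos.

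The remaining filament genes either rose by a few fold or did not pass. Among thick filament genes the myosin light chains Mlc1 and Mlc2 rose 2.47-fold and 2.97-fold, and the paramyosin gene Prm rose 2.22-fold. Mhc rose 2.41-fold (log2 fold change 1.27 ± 0.36, adjusted p = 0.0112), a call that was lost without adult control 1 (log2 fold change 0.68, adjusted p = 0.0621). Mf, encoding the thick filament protein myofilin, was at 1447, 1472 and 1577 CPM in embryos and 2135 and 1415 CPM in adults and did not pass (log2 fold change 0.24 ± 0.25, adjusted p = 0.414), with overlapping ranges. On the thin filament, the pointed end capping gene tmod rose 4.14-fold and sals, which controls thin filament length, 2.11-fold, though without adult control 1 sals was not called (adjusted p = 0.109). up, which encodes troponin T, was at 1374, 1566 and 1715 CPM in embryos and 2517 and 1751 CPM in adults (log2 fold change 0.46 ± 0.27, adjusted p = 0.164). The calponin-like gene Mp20 had a log2 fold change of −0.65 (adjusted p = 0.0636).

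Among the giant proteins Unc-89, the obscurin of the M line, rose 3.48-fold, and sls, which encodes titin-like kettin and Sallimus, rose 1.74-fold (log2 fold change 0.80 ± 0.32, adjusted p = 0.0467). The call of sls was lost without lola-F control 1, lola-F control 2 or adult control 1 (adjusted p = 0.111, 0.144 and 0.339). bt, which encodes projectin, had a log2 fold change of −0.18 (adjusted p = 0.595). Msp300 (2L:5100877-5207002, plus strand), the longest of the 33 with 69810 exonic bases, encodes the nesprin that ties nuclei to the muscle cytoskeleton; it was at 1449.8, 1305 and 1974 CPM in embryos and 1069.8 and 769 CPM in adults (log2 fold change −0.78 ± 0.29, adjusted p = 0.0387). Its call was lost without lola-F control 1, lola-F control 3 or adult control 2 (adjusted p = 0.05002, 0.0998 and 0.143). Of the Z disc and LIM genes, Zasp52 rose 3.42-fold, while Zasp66, Actn, Mlp60A and Mlp84B lay between −0.17 and 0.66 on the log2 scale and did not pass.

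Mef2 (2R:9913496-9958858, minus strand) was at 131, 128 and 183 CPM in the lola-F set controls, 121 and 123 CPM in the lola-null set controls and 124 and 86.2 CPM in the adult controls. Its log2 change from the lola-F set controls to adults was −0.49 ± 0.24 (adjusted p = 0.102). Both adult libraries and both lola-null set controls lay below the lowest lola-F set control, and the higher adult library lay above the lola-null set controls.

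Levels per kilobase give the order of abundance among genes, with the reservation that exonic length joins all isoforms and so understates genes with many, such as Mhc, Tm1 and sls. In lola-F set controls the highest were Act57B (4969 ± 461 CPM per kb, SD, n = 3), Mlc2 (1977 ± 208), Mlc1 (1309 ± 71.9) and Mp20 (1023 ± 138). Mhc followed at 873 ± 114 CPM per kb and TpnC47D at 757 ± 80.4, and their libraries overlapped in range. In adult controls Act88F (6261 ± 2969 CPM per kb, n = 2) and Mlc2 (5877 ± 2041) lay within each other's spread at the top, and Act79B (3681 ± 1666), Mlc1 (3235 ± 903) and fln (2359.9 ± 543) came next, with overlapping spreads. Adult control 1 held 44801 CPM of the 4 muscle marker genes together (Mhc, Mlc2, Mef2 and up) and adult control 2 held 24717 CPM, so adult levels of most of these genes carry a wide spread.

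**Figure D3:**
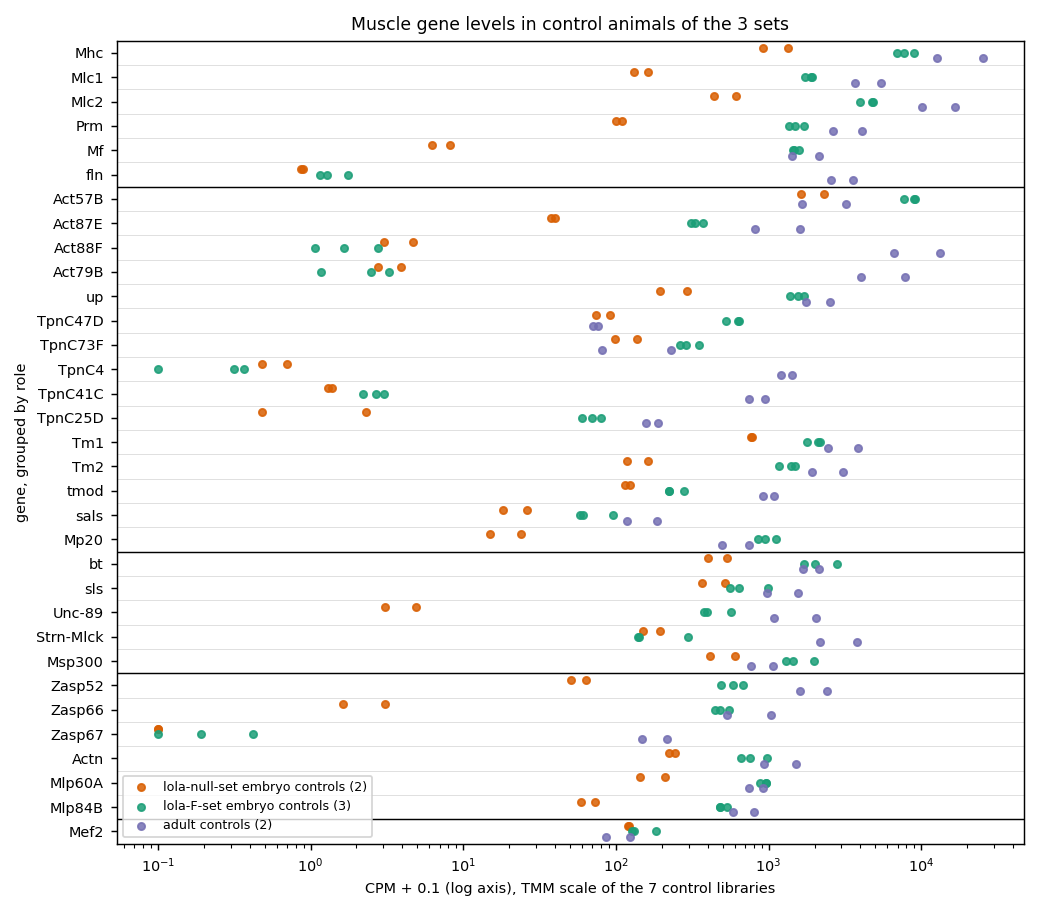
Level of each of the 33 genes (rows, by role) in the 7 control libraries, as CPM + 0.1 on a log axis, with 1 point a library and a colour for each of the 3 control groups. Adult points of Act88F, Act79B, TpnC4, TpnC41C, fln and Zasp67 lie far to the right of both embryo groups, and lola-null set points lie left of the lola-F set points in 28 of the 33 genes.

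Further muscle genes, not among the 33, moved in both directions with stage, as did all tested genes (39.9% higher and 24% lower). Of 13 tested genes of the sarcomere, the sarcoplasmic reticulum and the dystrophin complex, 2 were higher in adults and 8 lower. SERCA, the calcium pump of the sarcoplasmic reticulum, was at 2000.2 ± 304 CPM in embryos and 8914 ± 2712 CPM in adults (log2 fold change 2.16 ± 0.29, adjusted p = 0.000108), and Scgdelta, a sarcoglycan, at 40.6 ± 11.9 and 5.55 ± 2.56 CPM (log2 fold change −2.84 ± 0.36, adjusted p = 6.91e-05). Of 18 myoblast specification and fusion genes 4 were higher and 4 lower; the muscle identity gene kn was at 30.7 ± 5.16 CPM in embryos and 3.12 ± 1.65 CPM in adults (log2 fold change −3.25 ± 0.35, adjusted p = 1.89e-05). Of 16 muscle attachment genes 2 were higher and 9 lower, and of 10 adult muscle identity genes 2 were higher and 4 lower. Among the latter, bru1, a splicing regulator of flight muscle, was at 39.7 ± 5.98 CPM in embryos and 504 ± 21.6 CPM in adults (log2 fold change 3.66 ± 0.29, adjusted p = 2.17e-06). Counts from whole animals do not show in which tissue a gene of these lists changed, here or in the comparisons that follow.

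The second comparison sets the controls of the lola-null set against those of the lola-F set. Both carry the same genotype and the same age label, so it measures how far the embryo sets differed apart from the lola mutations. The level of lola itself differed too. It was at 1016 and 1414 CPM in the lola-null set controls and 259 to 361 CPM in the lola-F set controls, each within its own set. None of the 33 genes was higher in the lola-null set controls in edgeR and 25 were lower, where 30.1% of 13238 tested genes were higher and 27.8% lower. The median log2 difference of the 33 was −2.41, against 0.00 for all tested genes. No further gene was higher at an unadjusted p under 0.05, while DESeq2 called 1 higher, Act88F, and 26 lower. Over all 13238 tested genes DESeq2 called 3369 higher and 3920 lower. By role, 5 of 6 thick filament genes, 12 of 15 thin filament genes, 3 of 5 giant and kinase genes and 5 of 6 Z disc and LIM genes were lower. This comparison and the one with adults share the lola-F set controls. Age, handling and sequencing of the 2 sets cannot be told apart.

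The difference was very uneven across genes. Zasp66 was at 447, 484 and 548 CPM in the lola-F set controls and 2.99 and 1.53 CPM in the lola-null set controls (log2 fold change −7.83 ± 0.47, adjusted p = 5.91e-07). Mf went from 1447, 1472 and 1577 CPM to 6.18 and 8.15 CPM (log2 fold change −7.69 ± 0.37, adjusted p = 2.84e-07), and Unc-89 from 375, 397 and 571 CPM to 2.99 and 4.84 CPM (log2 fold change −6.80 ± 0.47, adjusted p = 1.11e-06). TpnC25D was at 59.9, 69.3 and 79.7 CPM against 2.19 and 0.382 CPM (log2 fold change −5.92 ± 0.48, adjusted p = 3.30e-06). These 4 genes were close to the floor in the lola-null set controls, with 95, 53, 27 and 14 counts in all for Mf, Unc-89, Zasp66 and TpnC25D. Mp20 was at 23.7 and 14.9 CPM in them (log2 fold change −5.66 ± 0.36, adjusted p = 8.08e-07), and Prm at 110.2 and 100.5 CPM against 1359, 1486 and 1702 CPM in the lola-F set (log2 fold change −3.85 ± 0.31, adjusted p = 3.23e-06).

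Core contractile genes were lower but well measured. Mhc was 7.01-fold lower, Mlc1 12.6-fold, Mlc2 8.63-fold, up 6.34-fold and Act57B 4.37-fold, with no overlap between the groups (32.4% of all tested genes lay all below and 36.2% all above). TpnC47D was at 91.9 and 73.7 CPM (log2 fold change −2.86 ± 0.23, adjusted p = 3.08e-06) and TpnC73F at 137 and 98.7 CPM (log2 fold change −1.35 ± 0.39, adjusted p = 0.0130). TpnC47D and TpnC73F held 46.7% to 49.6% and 49.6% to 52.0% of troponin C in lola-null set controls, against 67.5% to 71.6% and 22.5% to 27.5% in lola-F set controls. The fall of TpnC73F was not called without lola-null control 2 (adjusted p = 0.0991).

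Genes that did not pass were Mef2 (log2 fold change −0.28 ± 0.24, adjusted p = 0.359), Strn-Mlck (log2 fold change −0.16 ± 0.38, adjusted p = 0.778), sls (log2 fold change −0.72 ± 0.33, adjusted p = 0.0840) and 5 genes that were near absent in both groups: fln, Act88F, Act79B, TpnC4 and Zasp67. Act88F, with a log2 difference of 1.23, was called when adult control 1 or adult control 2 was left out of the fit that all 7 controls share (adjusted p = 0.0277 and 0.0342). Genes of earlier muscle steps went in both directions, as did all tested genes (30.1% higher and 27.8% lower). Of 18 myoblast specification and fusion genes 8 were higher in the lola-null set controls and 1 lower; the fusion gene sing was at 0.243 ± 0.249 CPM in the lola-F set and 5.53 ± 0.0746 CPM in the lola-null set controls (log2 fold change 4.84 ± 0.62, adjusted p = 7.46e-05), and rst, a cell adhesion gene of fusion, at 20.2 ± 0.918 and 65.4 ± 11.6 CPM (log2 fold change 1.70 ± 0.22, adjusted p = 6.44e-05). WASp, an actin regulator of fusion, was lower (log2 fold change −1.89 ± 0.23, adjusted p = 5.74e-05). Of 10 adult muscle identity genes 7 were higher and none lower, by edgeR, by DESeq2 and at an unadjusted p under 0.05, among them bru1 (log2 fold change 1.96 ± 0.28, adjusted p = 0.000153). Whole-embryo counts do not place these changes in muscle. Markers of other tissues moved too: 5 of 6 midgut markers were lower, summed at 28.6 and 51.02 CPM against 2234 to 3548 CPM in the lola-F set controls, and all 3 germline markers were higher, at 229 and 336.5 CPM against 23.7 to 38.2 CPM. Cpr65Ec and Tb, of the 7 cuticle markers, had no count in lola-null set controls. The part of these markers in the lower muscle levels was not tested.

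The third comparison asks how loss of the lola-F isoform bore on these genes in embryos, with 3 mutant against 3 control libraries. Of the 31 genes with enough counts for the test (TpnC4 and Zasp67 were left out), 10 were higher in mutants and 3 lower, where 3.33% of 10191 tested genes were higher and 3.73% lower. The median log2 fold change was 0.29, against 0.02 for all tested genes. Upper quartile scaling moved the latter to 0.17 and gave 15 higher and 3 lower members, where 943 of 10191 tested genes were higher and 439 lower. The higher genes were 2 myosin light chain genes, 6 thin filament genes and 2 LIM protein genes. The 3 lower genes, bt, sls and Msp300, all encode giant proteins.

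The thick filament genes split. Mlc1 was at 1721, 1798 and 1809 CPM in the controls and 2719, 2582 and 2794 CPM in the mutants (log2 fold change 0.60 ± 0.12, adjusted p = 0.0379). Mlc2 was at 3939, 4549 and 4506 CPM in the controls and 7274, 6714 and 8130.1 CPM in the mutants (log2 fold change 0.77 ± 0.14, adjusted p = 0.0334). All mutant libraries lay above all controls for both, as in 20.5% of all tested genes (19.5% lay all below). Mhc, in contrast, was at 6929, 7322 and 8488 CPM in the controls and 7933, 7817 and 6100.1 CPM in the mutants, with overlapping groups (log2 fold change −0.06 ± 0.16, adjusted p = 0.833). Prm (0.34 ± 0.13, adjusted p = 0.123) and Mf (0.47 ± 0.12, adjusted p = 0.0531) did not pass, although all their mutant libraries lay above the controls.

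Of the muscle actins, Act87E was at 306, 353 and 309.7 CPM in the controls and 857, 772 and 738 CPM in the mutants (log2 fold change 1.29 ± 0.13, adjusted p = 0.0153), the largest rise among the 33. Act57B was at 7596, 8650.0 and 8388 CPM in the controls and 12384, 11892 and 15231 CPM in the mutants (log2 fold change 0.68 ± 0.15, adjusted p = 0.0448). Mutants lay all above controls for both genes, as in 20.5% of all tested genes. Act87E took 3.10% to 3.42% of the muscle actin family in controls and 4.03% to 5.66% in mutants, and Act57B 96.5% to 96.9% and 94.3% to 96.0%. The adult-type genes stayed near the floor: Act88F was at 2.63, 0.916 and 1.46 CPM in the controls and 0.359, 0.489 and 0.575 CPM in the mutants (log2 fold change −1.65 ± 0.48, adjusted p = 0.0719), and Act79B at 3.16, 1.02 and 2.24 CPM in the controls and 1.44, 1.55 and 1.20 CPM in the mutants (log2 fold change −0.54 ± 0.43, adjusted p = 0.424). The cytoplasmic actins did not pass (Act5C, log2 fold change −0.36 ± 0.14, adjusted p = 0.123; Act42A, log2 fold change 0.18 ± 0.20, adjusted p = 0.562).

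Among the troponin C genes, TpnC47D was at 522, 609.8 and 590.1 CPM in the controls and 993, 859 and 1131 CPM in the mutants (log2 fold change 0.79 ± 0.15, adjusted p = 0.0353) and TpnC25D at 59.4, 65.7 and 75.0 CPM in the controls and 104, 96.8 and 101 CPM in the mutants (log2 fold change 0.59 ± 0.14, adjusted p = 0.0496). TpnC73F was at 283, 332 and 249 CPM in the controls and 486, 433 and 411 CPM in the mutants, apart from the controls in every library but without a call (log2 fold change 0.62 ± 0.15, adjusted p = 0.0526). TpnC41C was at 2.89, 2.44 and 1.98 CPM in the controls and 1.53, 1.71 and 2.09 CPM in the mutants (log2 fold change −0.41 ± 0.30, adjusted p = 0.383). TpnC4 had 0 to 0.263 CPM in controls and 0.0898 to 0.326 CPM in mutants. Within the family TpnC47D held 67.5% to 71.6% in controls and 69.0% to 75.2% in mutants, with overlap, while TpnC41C, a trace in both groups, held 0.101% to 0.157% and 0.0452% to 0.0586%. For the rest of the thin filament, Mp20 was at 848, 894 and 1047 CPM in the controls and 1703, 1604 and 2109 CPM in the mutants (log2 fold change 0.96 ± 0.16, adjusted p = 0.0277), and the tropomyosin gene Tm1 was at 1758, 2003 and 2044 CPM in the controls and 2919, 2778 and 3528 CPM in the mutants (log2 fold change 0.67 ± 0.15, adjusted p = 0.0444). The troponin T gene up was at 1363, 1484 and 1614 CPM in the controls and 2047, 1907 and 1209.7 CPM in the mutants (log2 fold change 0.21 ± 0.21, adjusted p = 0.520). Mutants 1 and 2 lay above the controls for up and mutant 3 below them.

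Among the giant proteins 3 of 5 genes fell. Msp300 was at 1438, 1236 and 1857 CPM in the controls and 562, 547 and 371 CPM in the mutants (log2 fold change −1.62 ± 0.22, adjusted p = 0.0223). For bt the values were 1991, 1623 and 2625 CPM in the controls and 986, 992 and 649 CPM in the mutants (log2 fold change −1.25 ± 0.24, adjusted p = 0.0358), and for sls they were 633, 532 and 932 CPM in the controls and 378, 374 and 269.7 CPM in the mutants (log2 fold change −1.04 ± 0.24, adjusted p = 0.0461). Every mutant library was below every control for these 3, as in 19.5% of all tested genes. In each, lola-F control 3 was the highest library and mutant 3 the lowest. Strn-Mlck was at 138, 134 and 279 CPM in the controls and 104, 107 and 79.7 CPM in the mutants without a call (log2 fold change −0.93 ± 0.30, adjusted p = 0.0899), and Unc-89 had a log2 fold change of −0.49 ± 0.21 (adjusted p = 0.168). The LIM protein genes Mlp60A and Mlp84B rose 1.51-fold and 1.52-fold, and Zasp52, Zasp66 and Actn did not pass, at 0.17, 0.50 and 0.26 on the log2 scale. Mef2 was at 129.6, 121 and 172 CPM in the controls and 134, 131 and 99.7 CPM in the mutants, with overlapping groups (log2 fold change −0.22 ± 0.19, adjusted p = 0.467).

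**Figure D4:**
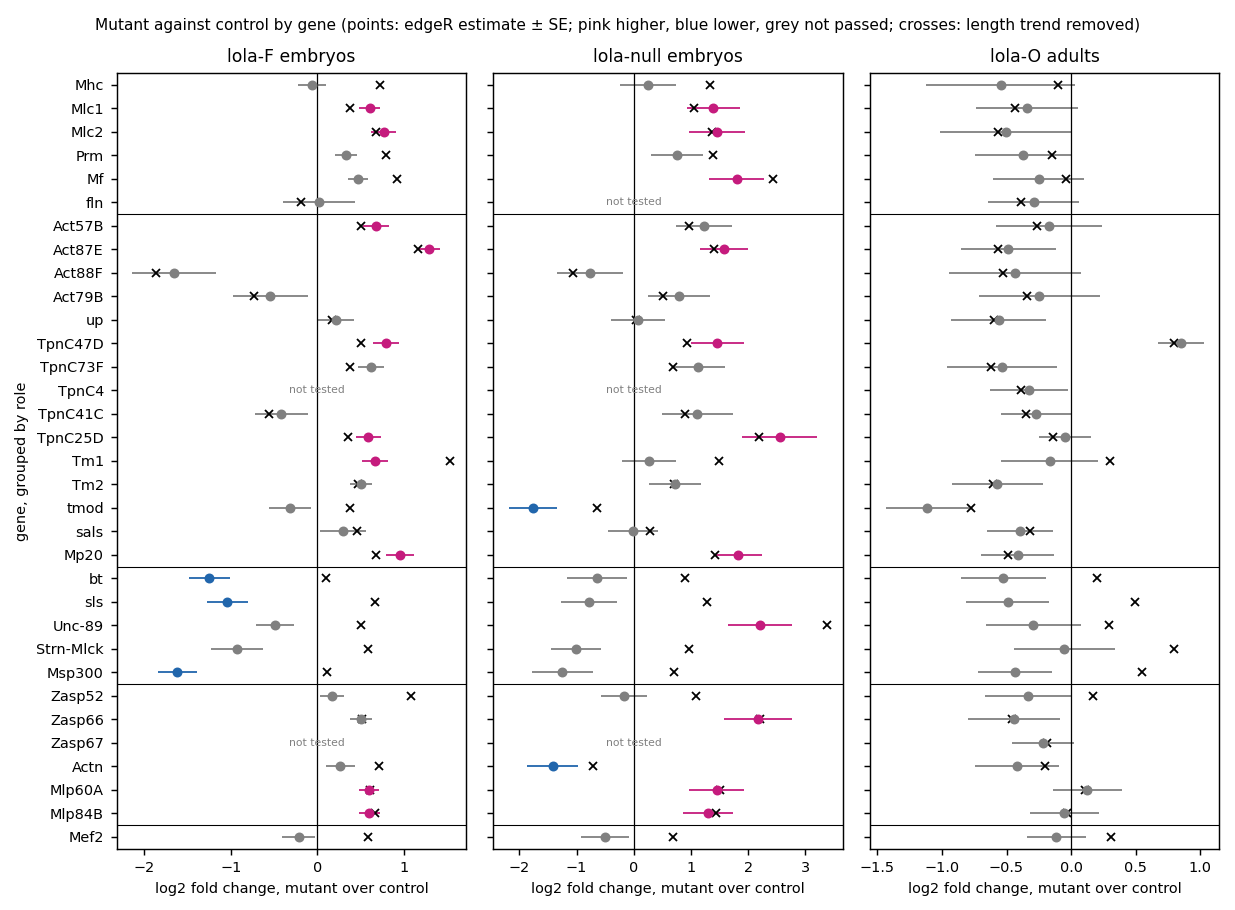
Log2 fold change of each gene, mutant over control, in the lola-F, lola-null and lola-O sets, with bars of 1 standard error, pink for higher and blue for lower at an adjusted p under 0.05, grey for not passed, and crosses for the value with the length trend removed. In the lola-F set the pink points run from 0.59 to 1.29 and the blue points are bt, sls and Msp300, whose crosses lie right of 0, and in the lola-O set all 33 points are grey.

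Direction ran with gene length. Spearman's rho between log2 fold change and exonic length was −0.55 over the 31 genes and −0.50 over 9994 tested genes, points that share the same 6 libraries. The 6 tested members over 10000 bases had a median of −0.98, against −1.02 for all 247 tested genes of that length, and the 16 members under 3000 bases had a median of 0.59, against 0.18 for 6832 genes. Without removal of this trend, DESeq2 gave 14 higher and 4 lower members, where it called 815 of 10191 tested genes higher and 1117 lower. With the trend of each library with length removed, 13 of the 31 genes were higher and none lower, where 1.68% of tested genes were higher and 1.02% lower. At an unadjusted p under 0.05 there were 23 higher members and 1 lower in that fit, where 2473 tested genes had such a p in either direction. Msp300, bt and sls then stood at 0.11, 0.10 and 0.66 on the log2 scale (adjusted p = 0.771, 0.692 and 0.0668), Mhc at 0.72 (0.0488) and Mef2 at 0.59 (0.0357), and Unc-89, Strn-Mlck and tmod at 0.51, 0.58 and 0.38 (0.0564, 0.0624 and 0.139). All 8 of these turned from below to above 0, and fln, at −0.19, turned from above to below. Act87E kept its call at 1.16 (adjusted p = 0.0159), as did Mp20 at 0.68 (0.0463), while Mlc1, Act57B, TpnC47D and TpnC25D lost theirs.

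**Figure D5:**
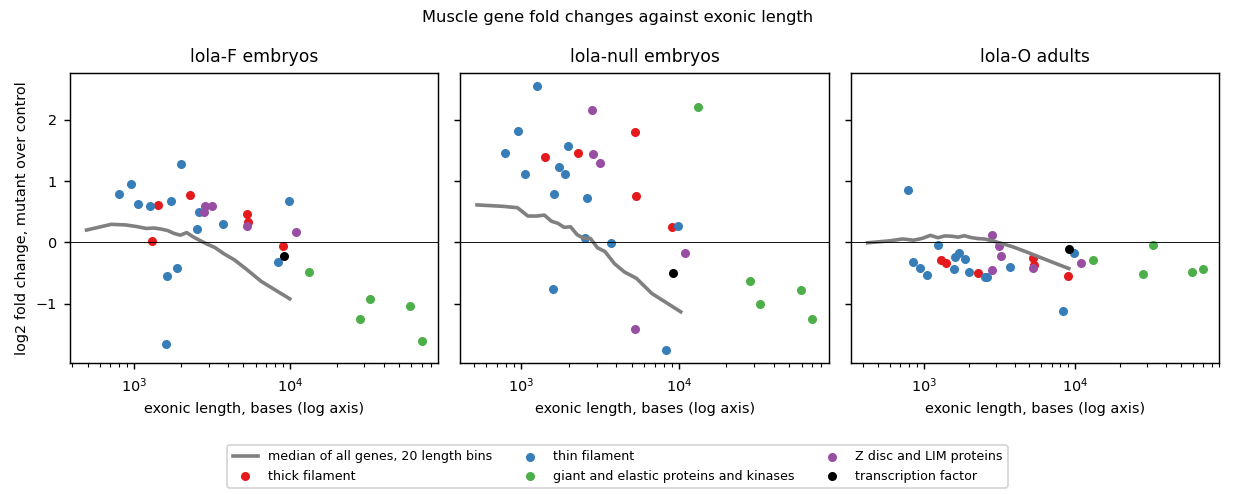
Log2 fold change against exonic length in bases (log axis) for the tested muscle genes (points, coloured by role) and the median of all tested genes in 20 length bins (line), in the lola-F, lola-null and lola-O sets. The line starts at 0.20 in the shortest bin of the lola-F set and at 0.61 in that of the lola-null set and falls below 0 for long genes, and bt, sls and Msp300 lie below 0 in all 3 sets.

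The calls also changed when single libraries were left out. Each such fit holds fewer libraries, so a lost call does not by itself show dependence on the library left out. Without lola-F mutant 1, mutant 2, control 1 or control 2, no gene of the whole table passed in edgeR (2595, 2874, 2277 and 2551 genes had an unadjusted p under 0.05, among them 19, 20, 19 and 19 of the 31). Without mutant 3 there were 13 higher and 2 lower members (398 and 273 of 10409 tested genes). Without control 3 there were 10 and 2 (504 and 646 of 10404 tested genes). In those 4 fits the log2 fold change of Act87E was between 1.24 and 1.36, with adjusted p between 0.0664 and 0.1005. Markers of other tissues moved in the same libraries: the 6 midgut markers summed to 2216 to 3339 CPM in controls and 4848 to 5749 CPM in mutants (5 of 6 higher), and the 8 neuron markers to 837 to 1576 CPM and 406 to 635 CPM (3 of 8 lower), with none of these markers at 0. With the length trend removed 4 of 6 midgut markers were higher and none of the neuron markers lower. Their part in the muscle result was not tested.

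Among muscle genes outside the 33, few passed, where 3.33% of all tested genes were higher and 3.73% lower. Of 13 further sarcomere and excitation-contraction genes 1 rose, the arginine kinase gene Argk1 (1398 ± 117 CPM in controls, 2205 ± 112 CPM in mutants, log2 fold change 0.66 ± 0.13, adjusted p = 0.0379). None of 16 myoblast specification and fusion genes passed in edgeR (1 higher and 4 lower at an unadjusted p under 0.05, 1 lower in DESeq2). None of 10 adult muscle identity genes passed either (6 lower unadjusted, 5 lower in DESeq2). Over all 10191 tested genes, 3172 had an unadjusted p under 0.05 in either direction, and DESeq2 called 815 higher and 1117 lower. Of 16 attachment genes the matrix genes Tig (log2 fold change −0.77 ± 0.12, adjusted p = 0.0247) and LanA (log2 fold change −1.02 ± 0.19, adjusted p = 0.0353) fell and stck, a partner of integrin-linked kinase, rose (log2 fold change 0.62 ± 0.13, adjusted p = 0.0416). With the length trend removed none of these 3 passed, at −0.15 for Tig, −0.14 for LanA and 0.42 for stck (adjusted p = 0.59999, 0.632 and 0.0864), and Argk1 still did (0.79, 0.0246).

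The fourth comparison asks the same of the lola-null allele E76, with 2 mutant against 2 control libraries. Of 30 genes tested (fln, TpnC4 and Zasp67 were left out), 11 were higher in mutants and 2 lower, where 7.42% of 9288 tested genes were higher and 9.49% lower. The median log2 fold change was 0.77, against 0.09 for all tested genes. The genes higher were 3 of 5 tested thick filament genes, 4 of 14 thin filament genes, Unc-89, Zasp66 and both LIM protein genes. The genes lower were tmod and Actn. Every rise started from the low control levels given above.

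TpnC25D was at 2.39 and 0.410 CPM in the controls and 6.72 and 8.47 CPM in the mutants (log2 fold change 2.55 ± 0.65, adjusted p = 0.00559), and Unc-89 at 3.26 and 5.19 CPM in the controls and 30.6 and 8.73 CPM in the mutants (log2 fold change 2.21 ± 0.56, adjusted p = 0.00478). Zasp66 was at 3.26 and 1.64 CPM in the controls and 15.7 and 5.39 CPM in the mutants (log2 fold change 2.17 ± 0.60, adjusted p = 0.00977). For Unc-89 and Zasp66 the library labelled mutant 1 was well above the library labelled mutant 2, and both were above the controls, as in 29.3% of all tested genes (26.7% lay all below). Mp20 was at 25.9 and 15.99 CPM in the controls and 76.7 and 71.1 CPM in the mutants (log2 fold change 1.83 ± 0.42, adjusted p = 0.00219). Mf was at 6.74 and 8.75 CPM in the controls and 36.1 and 18.0 CPM in the mutants (log2 fold change 1.80 ± 0.49, adjusted p = 0.00831). Mutant levels of these genes remained far under those of lola-F set controls, where Mf was at 1395 to 1484 CPM within its own set.

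For the light chains, Mlc1 was at 177 and 141 CPM in the controls and 371 and 464 CPM in the mutants (log2 fold change 1.39 ± 0.47, adjusted p = 0.0377) and Mlc2 at 666 and 469 CPM in the controls and 1461 and 1665 CPM in the mutants (log2 fold change 1.46 ± 0.49, adjusted p = 0.0360). Both mutant libraries were above both controls for each, as in 29.3% of all tested genes. Mhc was at 1461 and 985 CPM in the controls and 1784 and 1111 CPM in the mutants, with the second mutant between the controls (log2 fold change 0.24 ± 0.49, adjusted p = 0.784). Act87E was at 41.1 and 42.5 CPM in the controls and 137 and 112 CPM in the mutants (log2 fold change 1.57 ± 0.42, adjusted p = 0.00727). Act57B was at 2499.7 and 1750.1 CPM in the controls and 4649.5 and 5279 CPM in the mutants, clear of the controls but without a call (log2 fold change 1.22 ± 0.49, adjusted p = 0.0928). Act88F was at 5.002 and 3.14 CPM in the controls and 1.97 and 2.82 CPM in the mutants. Act79B was at 4.13 and 2.87 CPM in the controls and 5.57 and 6.42 CPM in the mutants, and neither passed (adjusted p = 0.416 and 0.360).

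TpnC47D was at 100.3 and 79.1 CPM in the controls and 182 and 312 CPM in the mutants (log2 fold change 1.46 ± 0.46, adjusted p = 0.0252), and TpnC73F at 149 and 106 CPM in the controls and 219 and 338 CPM in the mutants (log2 fold change 1.13 ± 0.47, adjusted p = 0.102). In each of these the library labelled mutant 2 was the highest. TpnC41C was at 1.30 and 1.37 CPM in the controls and 2.79 and 3.08 CPM in the mutants (log2 fold change 1.11 ± 0.62, adjusted p = 0.248), and TpnC4 had 0.410 and 0.652 CPM in controls and 0.770 and 1.31 CPM in mutants. Mlp60A and Mlp84B rose 2.73-fold and 2.46-fold.

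tmod was at 125 and 132 CPM in the controls and 37.9 and 38.0 CPM in the mutants (log2 fold change −1.76 ± 0.42, adjusted p = 0.00287). Actn, which encodes the actin crosslinker of the Z disc, was at 243 and 262 CPM in the controls and 98.0 and 90.9 CPM in the mutants (log2 fold change −1.42 ± 0.45, adjusted p = 0.0257). Of the exonic bases of Actn, 19.4% overlap antisense genes, so part of its count is uncertain. Msp300 was at 658 and 445 CPM in the controls and 359 and 105 CPM in the mutants (log2 fold change −1.25 ± 0.53, adjusted p = 0.112), and up at 321 and 210.2 CPM in the controls and 332 and 227 CPM in the mutants (log2 fold change 0.07 ± 0.47, adjusted p = 0.938). Mef2 was at 132 and 132 CPM in the controls and 98.3 and 87.8 CPM in the mutants, below both controls in each mutant (log2 fold change −0.50 ± 0.42, adjusted p = 0.463).

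Here too the change ran with length, at Spearman's rho = −0.55 over the 30 genes and −0.49 over 9096 genes. Without removal of the trend DESeq2 gave 12 higher and 2 lower members, where it called 589 of 9288 tested genes higher and 839 lower. With the trend removed 15 genes were higher and none lower in edgeR (8.79% and 7.52% of tested genes). At an unadjusted p under 0.05 there were 19 and none in that fit, where 2449 tested genes had such a p in either direction. tmod and Actn then stood at −0.64 and −0.71 (adjusted p = 0.332 and 0.268), and sls and Zasp52 changed sign and were called at 1.28 and 1.10 (0.0141 and 0.0420). Msp300, bt, Strn-Mlck, Mef2 and sals also turned from below to above 0 without a call, to 0.69, 0.89, 0.96, 0.68 and 0.28. Mhc was called at 1.34 (0.00511). Without lola-null control 1 there was 1 higher gene, TpnC25D, and none lower. Without control 2 no member passed in edgeR, although 546 genes of the whole table did, and 3 members had an unadjusted p under 0.05. Without the library labelled mutant 1 the median log2 fold change was 0.67 over the members and −0.003 over all tested genes. Msp300 was then at −2.51 and Unc-89 at 0.91. Without the library labelled mutant 2 the medians were 0.79 and −0.02. Each of these fits holds 1 mutant library.

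Genes of other tissues and of other muscle steps differed between these groups as well. Over all tested genes 7.42% were higher and 9.49% lower, and 8.79% and 7.52% with the length trend removed. All 7 cuticle markers were higher in mutants, with a sum of 1265 and 1406 CPM against 9.35 and 9.02 CPM in controls. All 8 neuron markers were lower, at 120 and 138 CPM against 729 and 618 CPM. Of 10 adult muscle identity genes 6 were lower, among them bru1 (log2 fold change −2.97 ± 0.47, adjusted p = 2.40e-05) and the homeobox gene hth (log2 fold change −2.90 ± 0.47, adjusted p = 3.50e-05). Of 18 myoblast genes 2 were lower, kirre, the fusion receptor of founder cells (log2 fold change −2.23 ± 0.48, adjusted p = 0.000991), and kn (log2 fold change −2.19 ± 0.48, adjusted p = 0.00139). Of 13 further sarcomere and excitation-contraction genes 3 were lower, among them the calcium channel gene Ca-alpha1D (log2 fold change −2.02 ± 0.46, adjusted p = 0.00186), and of 16 attachment genes 1 was lower, the tendon gene sr (log2 fold change −1.76 ± 0.50, adjusted p = 0.0131). With the length trend removed the sarcomere list had 3 higher and none lower, the attachment list 1 higher and none lower, the myoblast list 1 lower, the adult identity list 3 lower and the neuron markers 5 lower, while all 7 cuticle markers were still higher. Ca-alpha1D was then at −0.91 (adjusted p = 0.133) and sr at −0.87 (0.183). The part of these differences in the muscle values was not tested.

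The difference between the lola-null and lola-F effects was tested directly in the 10 embryo libraries. Of 31 genes 5 had a larger log2 change in the lola-null set and 1 a smaller one, where 6.9% of 10848 tested genes had a larger and 1.69% a smaller one. Unc-89 (2.98 ± 0.70, adjusted p = 0.0275), TpnC25D (2.22 ± 0.59, 0.0458), Mf (1.60 ± 0.43, 0.0471), Mlp60A (1.07 ± 0.29, 0.0479) and Mlc1 (1.02 ± 0.25, 0.0325) were on the larger side. Actn was on the smaller side (−1.45 ± 0.30, 0.0169), with a log2 fold change of 0.26 in lola-F and −1.42 in lola-null embryos. Act87E (0.53 ± 0.30, 0.310), Msp300 (0.65 ± 0.66, 0.585) and Mef2 (−0.05 ± 0.34, 0.961) did not pass. Upper quartile scaling moved the median of all genes from 0.31 to −0.00 and left 1 larger and 2 smaller calls. Over all 10848 tested genes, 534 were then larger and 361 smaller. Without lola-F control 2 or lola-null control 2 there was no call in edgeR (12 and 2 or 7 and 2 members unadjusted), without lola-F mutant 1, lola-F mutant 2 or lola-F control 1 there was 1, and without lola-F control 3 there were 2. Without lola-F mutant 3 or lola-null control 1 there were 3, without the library labelled lola-null mutant 1 there were 3 larger and 1 smaller, and without the library labelled lola-null mutant 2 there were 10. The sets differ in their controls as described, so allele and set cannot be told apart.

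The fifth comparison asks how the lola-O mutation bore on these genes in adults. None of the 33 genes passed in edgeR, where 0.333% of 12906 tested genes were higher and 0.225% lower. At an unadjusted p under 0.05 there was 1 higher gene, TpnC47D, and 1 lower, tmod. Over all 12906 tested genes, 2085 had such a p in either direction. DESeq2 called those 2 members, where it called 164 of all tested genes higher and 174 lower. In all, 31 of the 33 log2 fold changes were below 0, with a median of −0.34 against 0.01 for all tested genes. With the length trend removed 23 were below 0 and the median was −0.20; all 5 giant and kinase genes turned positive, Msp300 to 0.55 for example, as did Mef2 (0.31), Tm1 (0.30) and Zasp52 (0.17). Without that removal, the direction depended on which adult control was kept. Without adult control 1, 16 of 33 were below 0 and the median was 0.03. Without adult control 2, 32 of 33 were below 0 and the median was −0.67. Each of these fits holds 1 control library, so neither control can be named as the odd one.

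Values by library show the gap between the adult controls. Mhc was at 20158 and 9869 CPM in the controls and 10264 and 10316 CPM in the mutants (log2 fold change −0.55 ± 0.58, adjusted p = 0.702), and Act88F at 10572 and 5141 CPM in the controls and 5453 and 6188 CPM in the mutants (log2 fold change −0.43 ± 0.51, adjusted p = 0.736). Act79B was at 6237 and 3139 CPM in the controls and 3571 and 4342 CPM in the mutants, Act57B at 2567 and 1288 CPM in the controls and 1539 and 1883 CPM in the mutants and Act87E at 1266 and 630.5 CPM in the controls and 665 and 689 CPM in the mutants. In each of these 5 genes control 1 was the highest library, and control 2 was the lowest. Shares within the actin family differed less: Act88F held 51.8% to 52.6% in controls and 48.5% to 49.9% in mutants, and Act57B 11.8% to 12.0% and 13.0% to 13.7%.

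TpnC47D was at 60.8 and 54.8 CPM in the controls and 108 and 100.2 CPM in the mutants, with both mutants above both controls (log2 fold change 0.85 ± 0.18, adjusted p = 0.0888). It held 3.66% to 4.25% of troponin C in controls and 7.74% to 9.07% in mutants. It was the larval troponin C that had fallen most from embryo to adult, a fall measured with these same adult controls. The rise of TpnC47D in mutants was not called. TpnC4 was at 1130.2 and 931 CPM in the controls and 953 and 691 CPM in the mutants (log2 fold change −0.33 ± 0.30, adjusted p = 0.653), TpnC41C at 752 and 578 CPM in the controls and 603 and 501 CPM in the mutants (log2 fold change −0.27 ± 0.27, adjusted p = 0.686) and TpnC73F at 183 and 62.8 CPM in the controls and 87.2 and 82.2 CPM in the mutants (log2 fold change −0.53 ± 0.43, adjusted p = 0.595), with overlapping groups for all 3. tmod was at 731 and 836 CPM in the controls and 458 and 265 CPM in the mutants, with both mutants below both controls (log2 fold change −1.12 ± 0.32, adjusted p = 0.173). Of the other members up was at 1995 and 1356 CPM in the controls and 1382 and 889 CPM in the mutants (log2 fold change −0.56 ± 0.37, adjusted p = 0.500), Msp300 at 848 and 595 CPM in the controls and 586 and 484 CPM in the mutants (log2 fold change −0.43 ± 0.29, adjusted p = 0.511) and Mef2 at 98.4 and 66.7 CPM in the controls and 81.5 and 70.9 CPM in the mutants (log2 fold change −0.11 ± 0.23, adjusted p = 0.854). In all, mutants lay above controls without overlap in 1 gene and below in 6, where 25.3% and 23.4% of tested genes did so. No gene of the other muscle lists passed in edgeR or in DESeq2 (13, 18, 16 and 10 tested). At an unadjusted p under 0.05 there were 2 higher and 7 lower, where 2085 of 12906 tested genes had such a p in either direction. The 4 fat body markers summed to 671 and 535 CPM in controls and 6012 and 5679 CPM in mutants, of which 1 of 3 tested passed, and their part in the muscle values was not tested.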

How the data were processed

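Poly(A) RNA from whole embryos or adults was sequenced from directional libraries, per the labels' protocols. The deposited values are whole counts of reads per gene, made by the authors before deposit; the submitters' processing notes name STAR 2.5.0c, HTSeq 0.6.1p1 and the build BDGP6. The 5 summary rows of each file (unassigned and multimapped reads) were left out of library sizes, and their shares are in the report. Gene totals join all isoforms. Coordinates, exonic lengths and overlaps came from the Ensembl annotation of BDGP6.54, which matched 17252 of 17558 identifiers.

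Counts were tested with edgeR 4.0.16 in R 4.3.3 (filterByExpr, TMM scaling, quasi-likelihood F test, Benjamini-Hochberg adjustment over all tested genes, threshold 0.05). Each mutant was compared with the controls of its own set, the 7 controls shared 1 fit, and the difference of embryo effects was fitted on the 10 embryo libraries. CPM values come from the scaling of the set or fit in question, standard errors were derived from the F statistic, and family shares are counts per kb of exonic length. Intervals are 95% exact binomial and, like the floor of 3 counts, cover counting error only. The length trend of each library was removed as an offset from a lowess fit (span 0.3). DESeq2 1.42.0, upper quartile scaling, other filters, a replicate block and leaving out each library were the alternatives. The members and lists were chosen with earlier results of these data known. Members were given library by library where they passed and were among the 6 largest changes, belong to the actin or troponin C families, or are Mef2, Mhc, up or the longest or shortest gene; others were named where a group count turned on them. From the other muscle lists up to 3 genes with the smallest p were named.

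Nothing in the labels says that libraries of a group are separate cultures, so p-values measure the spread between these libraries, which may be technical. No pair of replicate libraries was close enough to be a repeat of 1 library (chi-square over its degrees of freedom between 3.18 and 89.9). The value of 3.18 was that of lola-F mutants 1 and 2, and every other pair was at 15.8 or more. Whether those 2 libraries came from 1 RNA sample cannot be told, and the lola-F tests count them as separate. The identifier read as lola is an older one for that gene. wupA, unc-45, hbs, ap, vas and nos were not matched by name and are not analysed here.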

Additional observations from a re-analysis of the deposited data

Results flagged for a closer look

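For 6 genes the lola-null and lola-F effects differed by a test of the difference itself (edgeR, adjusted over 10848 genes). The log2 difference, lola-null minus lola-F, was 2.98 for Unc-89 (adjusted p = 0.0275), 2.22 for TpnC25D (0.0458), 1.60 for Mf (0.0471), 1.07 for Mlp60A (0.0479) and 1.02 for Mlc1 (0.0325). For Actn it was −1.45 (0.0169). In Unc-89, TpnC25D and Mf the lola-null controls had few counts, and Unc-89 had opposite signs in the sets, at −0.49 in lola-F and 2.21 in lola-null embryos. The lola-F value of Unc-89 was not called. With the length trend removed it was 0.51, and all 5 giant and kinase genes were above 0 in both sets. No call held in every fit with a library left out: without lola-F control 2 or lola-null control 2 there was none.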

How the results depend on the processing

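With the replicate block the number of muscle genes called was 0 in lola-F, 6 in lola-null and 1 in lola-O mutants and 0 in the difference of embryo effects. Correlations of same-numbered libraries were −0.036, −0.15 and −0.111 in lola-F, −0.253 in lola-null and 0.0936 in lola-O. With 2 libraries a group, the lola-null and lola-O values are 1 contrast each and cannot settle whether libraries were paired. The main fits treat libraries as unpaired. In lola-O the block moved the calls over all genes from 43 higher and 29 lower to 271 and 398. With the lola-null mutant numbers crossed, an alternative chosen after seeing the data, 17 were called. Without a filter on low counts 6 were called in lola-F, 1 in lola-O and 3 in the difference of effects, and upper quartile scaling and removal of the length trend each gave 3 in the latter. DESeq2 called 2 in lola-O. Leaving out 1 library gave 0 to 15 in lola-F, 0 to 17 in lola-null, 0 in lola-O, 0 to 10 in the difference, 20 to 26 between adult and embryo controls and 23 to 27 between the embryo controls. Removing the length trend turned, among values called before or after, the lola-F values of bt (0.10), sls (0.66), Msp300 (0.11), Mhc (0.72) and Mef2 (0.59) and the lola-null values of sls (1.28) and Zasp52 (1.10) positive. The adult-minus-embryo share of the adult-type actins was 81.1 points from unscaled counts and 82.6 against lola-null set controls alone, and 82.7 to 82.96 with a library left out; for troponin C it was 82.1 to 85.8. The other counts stayed within 1.5 times the reported ones. Over the comparisons and single genes, leaving out a library lost 141 calls and gained 41. Beyond the length trend, the cause was not tested. Mf, Unc-89, Zasp66 and TpnC25D rest on 14 to 95 counts in the lola-null controls, which limits the precision of their fold changes.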
